A study of Mus musculus with 9 samples.

Results

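The genes described here are 9 regulators of G-protein signaling (RGS): Rgs1, Rgs2, Rgs3, Rgs10, Rgs11, Rgs14, Rgs16, Rgs18 and Rgs19. They were chosen by gene symbol from the 41978 genes of an RNA-seq table of sorted thymocytes, and 8 of the 9 entered the test. The cells were semi-mature CD4 single-positive (SP4) thymocytes from Nur77-eGFP BAC Tg mice, in which a bacterial artificial chromosome transgene makes eGFP from the regulatory sequence of Nr4a1 and so marks T cell receptor (TCR) signaling in every group alike. Live CD25- CD24+ CD69+ CD4+ CD8- cells were divided by GFP into the lowest (GFPlo), middle (GFPmed) and highest (GFPhi) gates of about 10% each, with 10000 cells sorted per sample and 3 biological replicates per group. No treatment, second genotype or age is given in the labels, and the reporter stands for self-reactivity only as far as eGFP follows the endogenous gene.

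RGS proteins bind active G alpha subunits and speed the hydrolysis of their GTP, which ends the signal of a G-protein-coupled receptor. Family members differ in the G alpha subunits they act on and in the domains around the RGS domain. In thymocytes and T cells, G alpha i-coupled chemokine and sphingosine-1-phosphate receptors guide migration between cortex, medulla and blood, so that RGS proteins are known as brakes on that movement.

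The samples held 7465552 to 14943774 reads on genes, with a median of 9426281. Nr4a1, the gene behind the reporter, averaged 217 ± 32.1 TPM in GFPlo, 374 ± 28.6 in GFPmed and 840 ± 75.0 in GFPhi (SD, n = 3 each), with no overlap between the groups. Cd3e and Cd4 were abundant in each group, Cd4 at 582, 562 and 474 TPM, whereas Cd8a averaged 16.7, 16.7 and 7.15 TPM. The 7 SP4 markers (Cd3e, Cd4, Cd69, Cd24a, Ccr7, Zbtb7b and Lck) summed to 3779 to 4400, 3983 to 4076 and 3360 to 3901 TPM. None was called between GFPhi and GFPlo, and 1 was lower in GFPhi by adjusted p alone, as were 1.51% of all genes. All 3 Treg markers were higher in GFPhi, and the summed TPM of Foxp3, Il2ra and Ikzf4 ran from 13.7 to 14.1 in GFPlo, 18.3 to 20.7 in GFPmed and 58.9 to 72.8 in GFPhi. Il2ra, which encodes the CD25 that the gate excluded, averaged 0.665, 1.75 and 9.73 TPM. The summed TPM of 6 B cell markers ran from 20.8 to 30.2, 22.2 to 32.2 and 12.3 to 31.6, and that of 7 myeloid and dendritic cell markers from 28.6 to 30.3, 27.7 to 31.9 and 21.5 to 30.3, with 0 called in either list. The 4 thymic epithelial markers in the table summed to 3.64 to 8.34, 5.64 to 9.08 and 9.65 to 12.7 TPM, without overlap between GFPlo and GFPhi, and Epcam was called higher in GFPhi. The 2 erythroid markers summed to 1.69 to 2.42, 4.0 to 7.63 and 3.35 to 6.22 TPM, with 0 called. The 3 CD8 markers summed to 40.5 to 44.2, 42.6 to 45.7 and 31.3 to 33.9 TPM, with Cd8a called lower. By adjusted p alone, 2 of the 3 were lower and 1 was higher in GFPhi (1.51% and 2.38% of all genes). The 4 NKT and gamma delta T cell markers summed to 23.9 to 28.6, 21.2 to 24.4 and 16.1 to 28.0 TPM. Of these, 3 were tested, with Sox13 called lower and a median log2 fold change of 0.07. The part of these cells in the RGS results was not tested. In bulk RNA, more cells that express a gene and more RNA of it per cell cannot be told apart.

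Promoters in RefSeq (GRCm38.p6) were found for 5 of the 9 genes, as 8 start sites. The 250 bases upstream of the start site are printed for Rgs16, the member with the largest difference between the reporter groups, for Rgs10, the most abundant member per exonic length, and for Rgs2, which was lower in GFPhi. They run 5′ to 3′ on the strand of the gene, at chr1:153740103-153740352 (plus strand), chr7:128418173-128418422 (minus strand) and chr1:144004150-144004399 (minus strand). Capitals mark a match to the EGR motif GCGNGGGCG on either strand.
Rgs16: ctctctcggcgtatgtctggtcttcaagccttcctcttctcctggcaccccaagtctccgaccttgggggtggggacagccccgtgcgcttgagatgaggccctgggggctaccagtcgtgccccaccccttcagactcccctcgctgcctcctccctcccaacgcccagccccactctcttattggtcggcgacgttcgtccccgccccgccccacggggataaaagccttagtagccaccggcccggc
Rgs10: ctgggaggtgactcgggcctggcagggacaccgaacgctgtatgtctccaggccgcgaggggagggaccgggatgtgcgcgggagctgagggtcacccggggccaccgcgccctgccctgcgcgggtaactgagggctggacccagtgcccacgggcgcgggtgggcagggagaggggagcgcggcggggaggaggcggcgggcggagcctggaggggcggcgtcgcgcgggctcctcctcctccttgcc
Rgs2: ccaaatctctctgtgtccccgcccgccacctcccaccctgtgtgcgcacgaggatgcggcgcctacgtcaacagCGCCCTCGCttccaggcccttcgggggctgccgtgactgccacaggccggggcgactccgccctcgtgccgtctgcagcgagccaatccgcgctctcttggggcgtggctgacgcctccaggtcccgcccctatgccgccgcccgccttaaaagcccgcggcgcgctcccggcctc
The GC content of these stretches was 66.4%, 76.4% and 72.4%. From 250 bases before to 50 after the start site, on both strands, 2 of the 8 promoters matched the EGR motif, Rgs2 from position -176 and 1 start site of Rgs19 from position -98, as did 5.55% of 32851 RefSeq promoters. None of the 8 held the NBRE letters AAAGGTCA, to which Nr4a1 protein binds and which were in 1.51% of all promoters. None held the AP-1 letters TGANTCA (7.81% of all) or the CRE letters TGACGTCA (1.79% of all). The short NFAT core GGAAA was in 3 of the 8 and in 61.3% of all promoters. Rgs16, Rgs10 and Rgs2 matched none of these 4 other motifs in that window.

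The first question was which RGS transcripts differed between GFPhi and GFPlo. Rgs16 and Rgs11 rose in GFPhi, no member fell past both thresholds, and 4 other members passed the limit on the adjusted p but not that on the fold change. A gene was called when its log2 fold change was at least 1 in size and its adjusted p at most 0.05 in limma, fitted on log2(TPM + 1) over all 9 samples with Benjamini-Hochberg adjustment over the 30693 genes that reached 1 TPM in 3 or more samples. By this rule 2 of the 8 tested members were higher, where 1.26% of all genes tested were, and 0 were lower, where 0.404% were. By adjusted p alone, 3 members were higher (2.38% of all genes) and 3 were lower (1.51%). The 3 samples of GFPhi lay all above those of GFPlo for 4 members (8.26% of all genes) and all below them for 3 (9.92%). At an unadjusted p under 0.05, 7 of the 8 differed, as did 13.8% of all genes. The median log2 fold change was 0.21 over the 8 members and -0.09 over all genes tested. The 8 passed the filter in every group, with at least 1 TPM in each of the 9 samples.

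**Figure D1:**
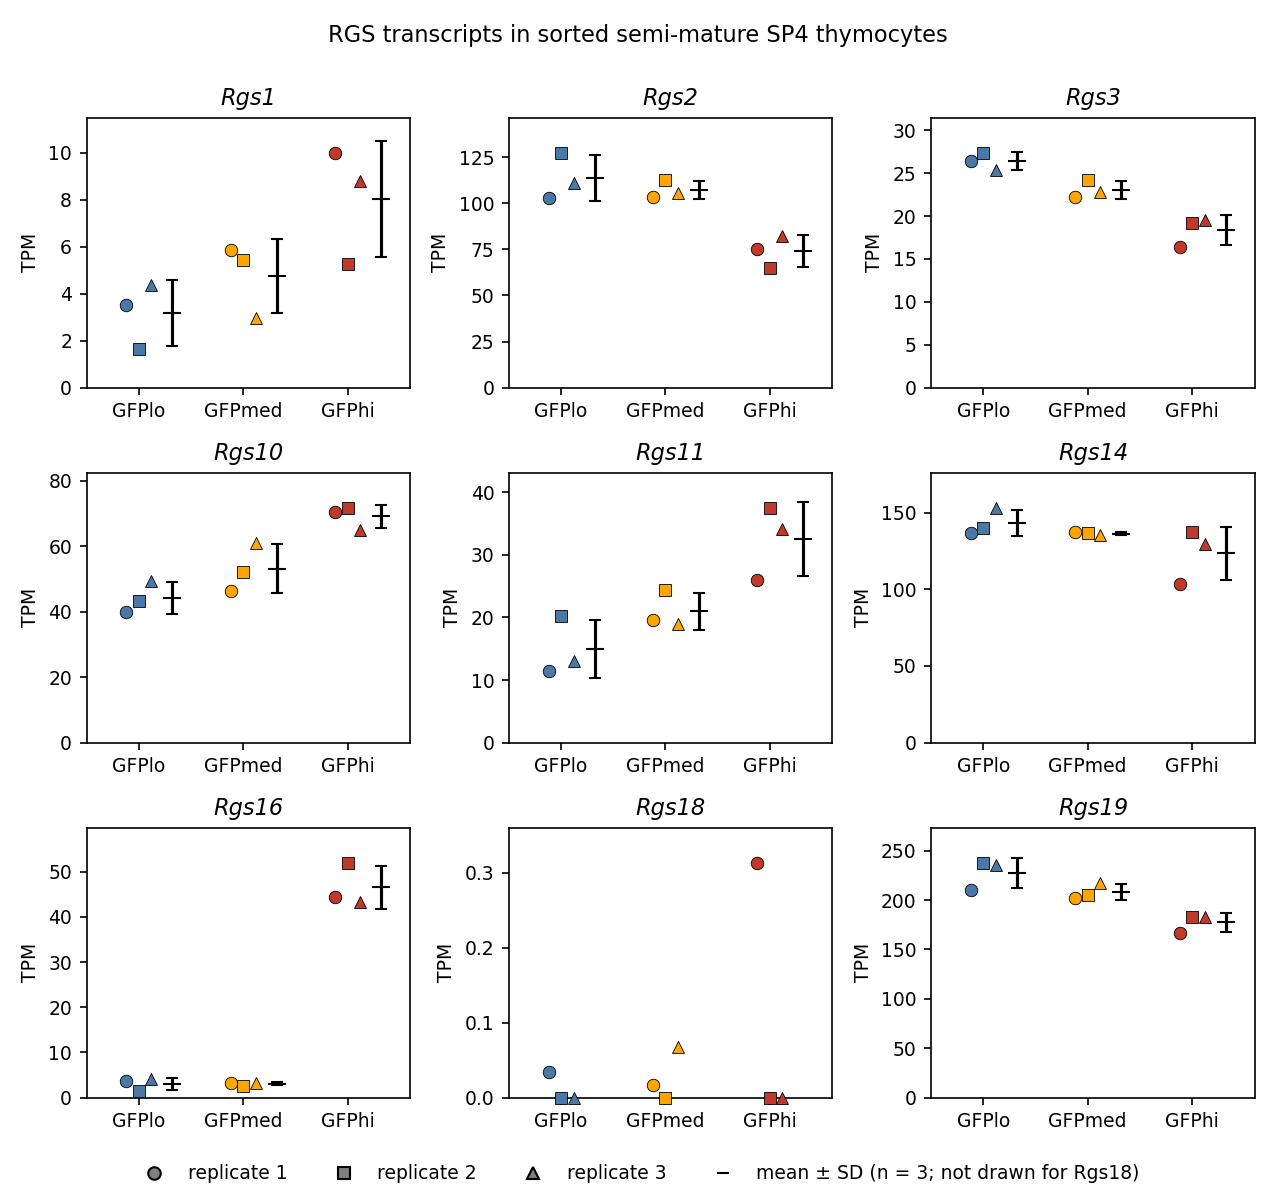
TPM of each RGS gene in each sample, by reporter group. Points are single samples, with the replicate number as the symbol, and bars give the mean ± SD of 3 samples (no mean is drawn for Rgs18). Each axis starts at 0 and has its own scale. The 3 GFPhi samples of Rgs16 lie between 43.3 and 52.0 TPM, above all 6 others.

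Many proteins of the R4 subfamily, though not all forms of Rgs3, are small and little more than an RGS domain. Its members here are Rgs1, Rgs2, Rgs3, Rgs16 and Rgs18. Rgs16 (ENSMUSG00000026475; GRCm38 chr1:153740349-153745468, plus strand) acts on G alpha i and G alpha q. It measured 3.58, 1.56 and 4.05 TPM in the GFPlo samples. The GFPmed samples were at 3.26, 2.64 and 3.28 TPM. The GFPhi samples were at 44.4, 52.0 and 43.3 TPM. GFPlo and GFPmed overlapped, and every GFPhi sample stood far above the highest of them. The reads behind these values were 24, 13 and 31 in GFPlo, 42, 21 and 22 in GFPmed and 478, 489 and 372 in GFPhi. The ratio of the GFPhi to the GFPlo mean was 15.2, and the log2 fold change was 3.60 (SE 0.26, 95% interval 2.99 to 4.22, adjusted p = 0.00043 in limma), the 27th highest of 30693. The call held in all 18 alternatives that kept the fold limit (the 19th only drops it), with log2 fold changes from 3.30 to 4.05. The Treg markers were higher in GFPhi, as Rgs16 and Rgs11 were. The summed TPM of the Treg markers ran from 13.7 to 14.1 in GFPlo and from 18.3 to 20.7 in GFPmed, with 0 of the 3 called between these groups. Rgs16 averaged 3.06 TPM in both, and Rgs11 14.9 TPM in GFPlo and 21.0 in GFPmed, also without a call. The part of the Treg markers in the rises of Rgs16 and Rgs11 was not tested.

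The non-coding gene Gm28513 lies antisense to Rgs16 (chr1:153743552-153749324, minus strand) and shares 236 exonic bases with it, 10.1% of the exonic length of Rgs16. Gm28513 averaged 0.484, 0.807 and 9.09 TPM in GFPlo, GFPmed and GFPhi, a log2 fold change of 2.77 between GFPhi and GFPlo (SE 0.22, adjusted p = 0.000631 in limma). It had at most 107 reads in a sample, against up to 489 for Rgs16. The libraries do not mark strand, so reads on the shared bases cannot be assigned to Rgs16 or to Gm28513. The other 11 protein-coding genes within 500 kb of Rgs16 included 8 that were tested in limma, with 0 called and 2 at an unadjusted p under 0.05. They include Rgs8, an R4 relative 40026 bp away (log2 fold change -0.25, adjusted p = 0.842).

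Rgs1 (chr1:144242296-144249242, minus strand), a brake on chemokine receptor signaling in lymphocytes, had the second-largest ratio of means among the tested members, 2.53, on few reads. It measured 3.51, 1.63 and 4.36 TPM in GFPlo, 5.87, 5.45 and 2.95 in GFPmed, and 10.0, 5.26 and 8.80 in GFPhi. The GFPhi samples all exceeded the GFPlo samples, while GFPmed overlapped both. Its log2 fold change of 1.14 between GFPhi and GFPlo (SE 0.37) did not pass, with an adjusted p of 0.19 in limma and at most 87 reads in a sample. Per exonic length, Rgs1 was at a level that olfactory and vomeronasal receptor genes also reached. Of 1530 such genes, 32.9% to 62.3% were below Rgs1 in the GFPlo samples, 46.8% to 62.4% in GFPmed and 69.2% to 79.0% in GFPhi. The exons of all Rgs1 transcripts joined make 6947 bases, more than its mean transcript span of 4135 bases. Division by exonic length may thus place Rgs1 too low. By the same measure 64.0% to 92.0% of these genes were below Rgs16 in GFPlo, and 99.9% to 100% in GFPhi.

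Rgs2 (chr1:143999338-144004161, minus strand), which acts mainly on G alpha q, went the other way. It measured 102.8, 127.4 and 110.9 TPM in GFPlo, 103.4, 112.8 and 105.4 in GFPmed, and 75.5, 64.9 and 82.3 in GFPhi. All GFPhi samples were below all 6 others, which overlapped one another. The GFPlo mean was 1.53 times the GFPhi mean, with a log2 fold change of -0.61 (SE 0.11, adjusted p = 0.0237 in limma), short of the fold limit. Rgs1 and Rgs2 lie 238135 bp apart on chromosome 1, and their values pointed in opposite directions.

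Rgs3 (chr4:62559847-62704001, plus strand), a broadly expressed regulator of G alpha i and G alpha q, measured 26.4, 27.4 and 25.3 TPM in GFPlo, 22.2, 24.2 and 22.8 in GFPmed, and 16.4, 19.2 and 19.6 in GFPhi. No 2 groups overlapped, and GFPmed lay between the others. Its log2 fold change from GFPlo to GFPhi was -0.50 (SE 0.10, adjusted p = 0.0354 in limma).

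Rgs18 (chr1:144752683-144775435, minus strand), known from platelets and megakaryocytes, was not tested because it was under 1 TPM in every sample. It had 1, 0 and 0 reads in GFPlo, 1, 0 and 2 in GFPmed, and 15, 0 and 0 in GFPhi. A count of 0 allows up to 3 reads, or 0.0717 to 0.0881 TPM in the 5 samples without a read. The reads in GFPhi thus came from replicate 1 alone. The summed TPM of the 3 platelet and megakaryocyte markers in the table ran from 9.38 to 23.3 in GFPlo, 13.4 to 18.9 in GFPmed and 11.1 to 19.4 in GFPhi.

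Rgs11 (chr17:26202951-26211324, plus strand) belongs to the R7 subfamily, whose proteins pair with the G beta 5 subunit and are best known from retina and brain. It measured 11.5, 20.2 and 13.0 TPM in GFPlo, 19.5, 24.4 and 19.0 in GFPmed, and 26.0, 37.5 and 34.2 in GFPhi. All GFPhi samples exceeded the other 6, and GFPlo replicate 2 reached into the GFPmed range. The ratio of the GFPhi to the GFPlo mean was 2.19, and Rgs11 rose by a log2 fold change of 1.10 (SE 0.23, 95% interval 0.57 to 1.63, adjusted p = 0.0403 in limma). This call was close to both limits and held in 7 of the same 18 alternatives. The adjusted p was 0.117 without GFPlo replicate 1, 0.136 without GFPlo replicate 3, 0.0752, 0.0644 and 0.0722 without GFPmed replicates 1, 2 and 3, and 0.121 and 0.137 without GFPhi replicates 2 and 3. Arhgdig, on the opposite strand, shares 138 exonic bases with Rgs11, 3.28% of its exonic length, and had at most 40 reads against up to 302 for Rgs11. The log2 fold change of Arhgdig was 0.82 (SE 0.23, adjusted p = 0.119 in limma). Of 37 protein-coding genes within 500 kb of Rgs11, 36 were tested, with 0 called higher and 0 lower. Decr2 (0.59, adjusted p = 0.0157 in limma), Fam173a (0.64, 0.0384) and Ergic1 (0.54, 0.0403) were higher by adjusted p alone, as were 2.38% of all genes. Whether they and Rgs11 change together was not tested.

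The R12 subfamily members Rgs10 and Rgs14 both act on G alpha i, and Rgs14 also has a GoLoco motif that binds inactive G alpha. Rgs10 (chr7:128373621-128418758, minus strand) measured 39.8, 43.3 and 49.3 TPM in GFPlo, 46.3, 52.1 and 61.0 in GFPmed, and 70.4, 71.7 and 65.0 in GFPhi. The GFPhi samples were above all others, while GFPlo and GFPmed overlapped. The ratio of means was 1.56 and the log2 fold change 0.64 (SE 0.12, adjusted p = 0.0286 in limma), under the fold limit. Rgs14 (chr13:55369732-55384687, plus strand) measured 136.9, 139.7 and 153.1 TPM in GFPlo, 137.1, 136.4 and 135.2 in GFPmed, and 103.7, 137.0 and 129.3 in GFPhi. Its groups overlapped, with GFPhi replicate 1 lowest, and its log2 fold change of -0.22 (95% interval -0.46 to 0.02, adjusted p = 0.414 in limma) did not pass.

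Rgs19 (chr2:181688419-181693977, minus strand), also called GAIP, is the RZ subfamily member and acts on G alpha i, G alpha o and G alpha z. It measured 209.8, 237.7 and 235.2 TPM in GFPlo, 202.2, 205.0 and 217.6 in GFPmed, and 166.4, 182.9 and 183.0 in GFPhi. Every GFPhi sample was below the other 6. The GFPlo mean was 1.28 times the GFPhi mean, with a log2 fold change of -0.36 (SE 0.07, adjusted p = 0.0343 in limma).

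The differences of Rgs10, Rgs2, Rgs3 and Rgs19 kept their direction in all 18 of these alternatives, but their adjusted p stayed at or under 0.05 in only 9, 9, 5 and 7 of them. When each of the 9 samples was left out in turn, this held 3 times for Rgs10 (adjusted p 0.0273 to 0.112), 4 times for Rgs2 (0.0376 to 0.0869), 0 times for Rgs3 (0.0632 to 0.146) and 1 time for Rgs19 (0.0312 to 0.141).

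**Figure D2:**
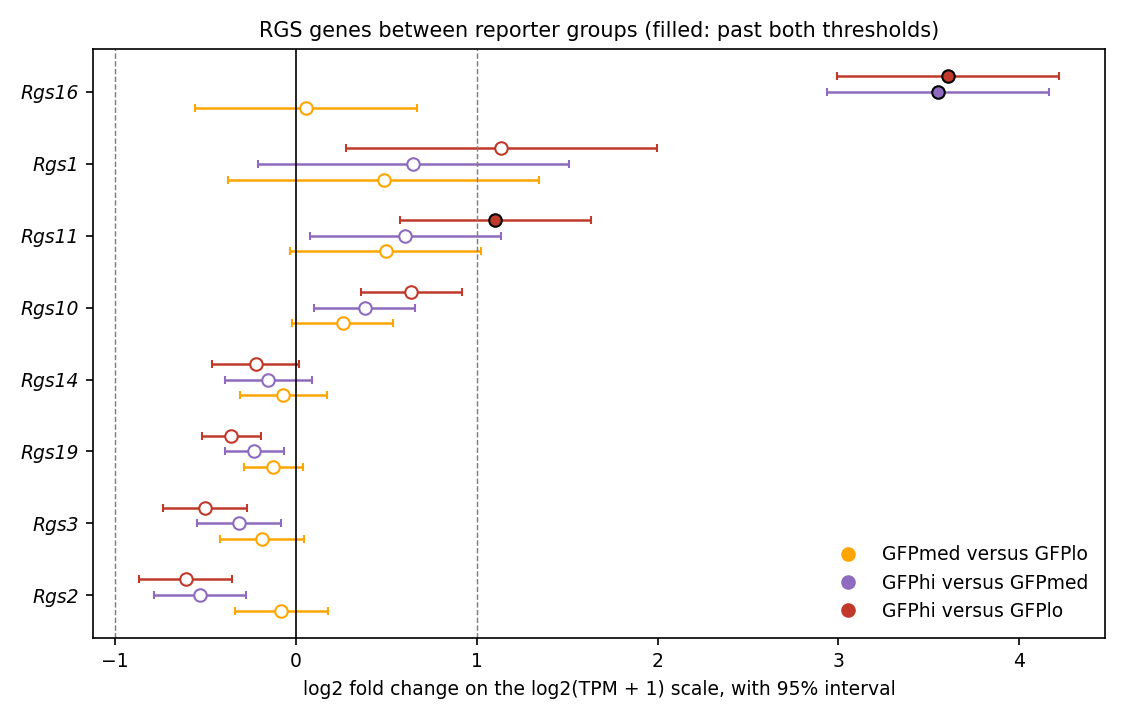
Log2 fold change of the 8 tested RGS genes with 95% intervals in the 3 comparisons of the groups. Filled points passed both thresholds and dashed lines mark the fold limit. Rgs16 has a fold change near 0 between GFPmed and GFPlo (0.06) and a large one between GFPhi and GFPmed (3.55).

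The second question was at which step of the reporter the members differed. Between GFPmed and GFPlo 0 of the 8 were called, where 0.0586% of all genes were, and 0 had an unadjusted p under 0.05 in limma, where 4.67% did. With limma-voom on reads 0 were called as well. Rgs16 was at 3.06 TPM in both groups, with a log2 fold change of 0.06 (95% interval -0.56 to 0.67). Between GFPhi and GFPmed, Rgs16 alone was called higher (log2 fold change 3.55, SE 0.26, adjusted p = 0.00129 in limma), where 0.541% of all genes were. Rgs2 followed with -0.53 (adjusted p = 0.0713), and the other 6 had an adjusted p of 0.231 to 0.744, although 6 of the 8 had an unadjusted p under 0.05, as did 10.6% of all genes.

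The GFPmed mean lay between the means of GFPlo and GFPhi on the log scale for all 8 members, at different points of the way. How many of all genes have this order was not computed. For Rgs16 it held on the log scale, while its mean TPM was 3.0615 in GFPmed and 3.0622 in GFPlo. The GFPmed mean covered 1.55% of the distance for Rgs16 and 13.1% for Rgs2, and 31.4% to 45.2% for Rgs14, Rgs19, Rgs3, Rgs10, Rgs1 and Rgs11. These percentages have no interval, and the whole distance of Rgs14 and Rgs1 did not pass the adjusted p. Nr4a1 had covered 40.5%. The difference between the upper and the lower step was tested as a contrast of its own, and 0 members passed, where 0.0195% of all genes did. For Rgs16 it was 3.49 (SE 0.46, 95% interval 2.43 to 4.56, unadjusted p = 7.36e-05, adjusted p = 0.12 in limma), and it passed without GFPlo replicate 2 (adjusted p = 0.0407) and with limma-voom on reads (adjusted p = 0.0261). For Rgs2 it was -0.45 (SE 0.19, adjusted p = 0.991).

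To compare members with one another, TPM was recomputed on exonic length, since the deposited TPM divides by the mean transcript span with its introns. Exonic length joins the exons of all annotated transcripts, so it can hold bases that other transcripts splice out. It exceeded the mean transcript span for Rgs1 (6947 against 4135 bases) and Rgs2 (3627 against 2759 bases). In GFPlo, Rgs10 was highest at 278 ± 30.5 exonic TPM, followed by Rgs19 at 251 ± 17.0 and Rgs14 at 157 ± 9.71 (SD, n = 3). The samples of Rgs10 and Rgs19 overlapped there. Rgs2 (49.5 ± 5.39) and Rgs3 (46.7 ± 1.72) also overlapped, and Rgs11 (8.86 ± 2.74), Rgs16 (3.83 ± 1.66) and Rgs1 (1.08 ± 0.477) followed without overlap. In GFPmed the order of the 9 members was the same, with no overlap between neighbours. In GFPhi, Rgs10 stood at 434 ± 19.4, Rgs19 at 195 ± 9.34 and Rgs14 at 135 ± 17.8. Rgs16 was the fourth at 58.1 ± 5.02, above Rgs3 (32.4 ± 2.88) and Rgs2 (32.2 ± 4.21), which overlapped, and above Rgs11 (19.3 ± 3.30) and Rgs1 (2.73 ± 0.869). In deposited TPM, Rgs2 (74.2) was above Rgs16 (46.6) in GFPhi, so the order of Rgs16 and Rgs2 depends on the length used. Rgs18 reached 2.02 in GFPhi replicate 1, within the range of Rgs1.

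The make-up of the RGS transcripts was described as shares, with no test. The 9 genes together took 737 ± 35.4 RPM (reads relative to the library total on genes) in GFPlo, 722 ± 44.7 in GFPmed and 751 ± 18.8 in GFPhi. Their summed exonic TPM, in which short transcripts such as Rgs10 weigh more, was 797 ± 55.4, 819 ± 57.8 and 910 ± 26.2, with each GFPhi sample (886 to 938) above each GFPlo sample (737 to 847). Of that summed exonic TPM, Rgs16 made up 0.483% ± 0.209 in GFPlo, 0.469% ± 0.0635 in GFPmed and 6.38% ± 0.399 in GFPhi. The share of Rgs10 was 34.9% ± 1.63, 40.7% ± 2.96 and 47.7% ± 2.53, whereas that of Rgs19 was 31.6% ± 0.925, 28.1% ± 0.883 and 21.5% ± 0.819. Rgs2, Rgs3 and Rgs14 also had smaller shares in each GFPhi sample than in any GFPlo sample, for example 5.70% to 6.87% of Rgs2 in GFPlo and 2.95% to 3.97% in GFPhi. Shares sum to a whole, so a higher share of one gene lowers the others.

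**Figure D3:**
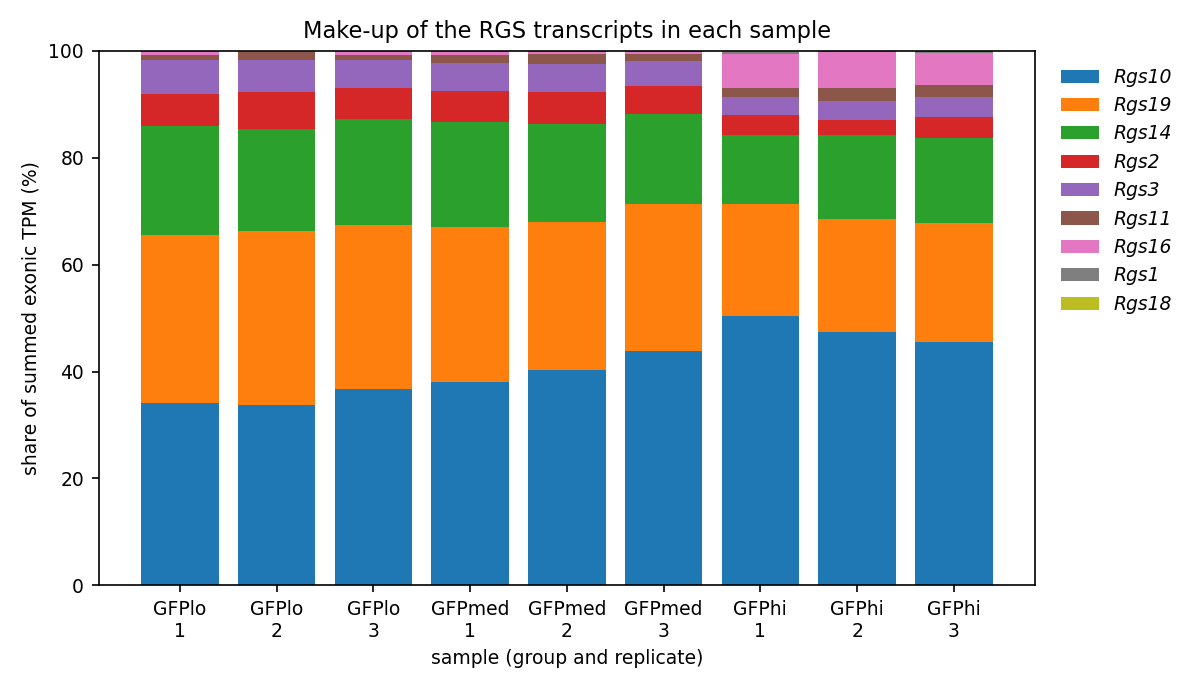
Share of each RGS gene in the summed exonic TPM of the 9 genes, in percent, 1 bar per sample. Rgs10, Rgs19 and Rgs14 make up most of each bar, and the band of Rgs16 is visible in the 3 GFPhi samples, at 6.01% to 6.81%.

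The table held 15 other genes of the RGS family, and 3 of them were tested. None of the 3 was called between GFPhi and GFPlo, with 0 at an unadjusted p under 0.05 in limma. Their log2 fold changes were 0.37 for Rgs12, a large R12 member (adjusted p = 0.607), -0.25 for Rgs8 and -0.12 for Rgs22 (adjusted p = 0.912). The other 12 averaged at most 0.905 TPM in each group, among them Rgs13 and Rgs21, which lie near Rgs1 and Rgs18 on chromosome 1. That TPM divides by the transcript span with introns, so it does not show how abundant these genes were next to the members. In GFPlo, GFPmed and GFPhi, Rgs13 averaged 2.43, 2.65 and 2.97 exonic TPM, and Rgs21 0.168, 0.0766 and 0.434. The tested member Rgs1 lay between them, at 1.08, 1.62 and 2.73, on an exonic length (6947 bases) above its mean transcript span. Samples of Rgs13 and Rgs1 overlapped in GFPlo and GFPhi. Of the 155 other protein-coding genes within 500 kb of the members, 130 were tested in limma, with 0 called and 39 at an unadjusted p under 0.05, a limit that 13.8% of all genes passed.

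The parts of the pathway around the RGS proteins were read from lists. Of 7 tested G alpha genes and 12 G beta and gamma genes, 0 passed even the adjusted p alone between GFPhi and GFPlo, with 4 and 1 at an unadjusted p under 0.05 in limma, against 13.8% of all genes. Their median log2 fold changes were -0.19 and 0.02, against -0.09 over all genes tested. Gnai2, the main G alpha i of lymphocytes, averaged 376 ± 31.2, 365 ± 10.7 and 388 ± 45.0 TPM in GFPlo, GFPmed and GFPhi (log2 fold change 0.04, adjusted p = 0.917 in limma). Gna13, another G alpha gene, differed by -0.26 on the log2 scale (adjusted p = 0.312), and Gnaq, a target of Rgs2, was under the filter at 0.576, 0.446 and 0.484 TPM. These values divide by the transcript span with introns, so they do not show how abundant Gnaq was next to other genes. Among 18 tested RGS-like, GoLoco, arrestin and receptor kinase genes, 0 were called in limma, 1 was higher and 1 lower by adjusted p alone, and 5 had an unadjusted p under 0.05 (median log2 fold change -0.10). Arhgef1, which has an RGS-like domain, was the higher one (log2 fold change 0.54, adjusted p = 0.0326 in limma), and Ric8b, a G alpha chaperone, the lower one (-0.82, adjusted p = 0.0463). Among 13 effectors (median log2 fold change -0.13) 0 were called in limma and 4 had an unadjusted p under 0.05, with Adcy7, an adenylyl cyclase, higher (0.51, adjusted p = 0.0328) and Pik3r5, a subunit of PI3K gamma, lower (-0.47, adjusted p = 0.0136) by adjusted p alone.

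Of 17 tested receptor genes, 3 were called higher and 2 lower between GFPhi and GFPlo, where 1.26% and 0.404% of all genes were. At an unadjusted p under 0.05 in limma, 11 differed, as did 13.8% of all genes. Their median log2 fold change was 0.26. The list was chosen with earlier results of these data known, so the counts do not test receptors as a group. S1pr1, which draws mature thymocytes toward blood, averaged 7.65 ± 1.57, 20.2 ± 2.93 and 222 ± 9.60 TPM, a log2 fold change of 4.70 (adjusted p = 9.95e-06 in limma). Ptger2, a prostaglandin E2 receptor, and S1pr4 rose by 2.53 and 2.31. The chemokine receptors Ccr9 and Ccr4 fell by 2.35 and 1.74 on the log2 scale. Ccr7, which guides thymocytes to the medulla, differed by -0.14 on the log2 scale (adjusted p = 0.38) and Cxcr4 by 0.93 (adjusted p = 0.13).

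**Figure D4:**
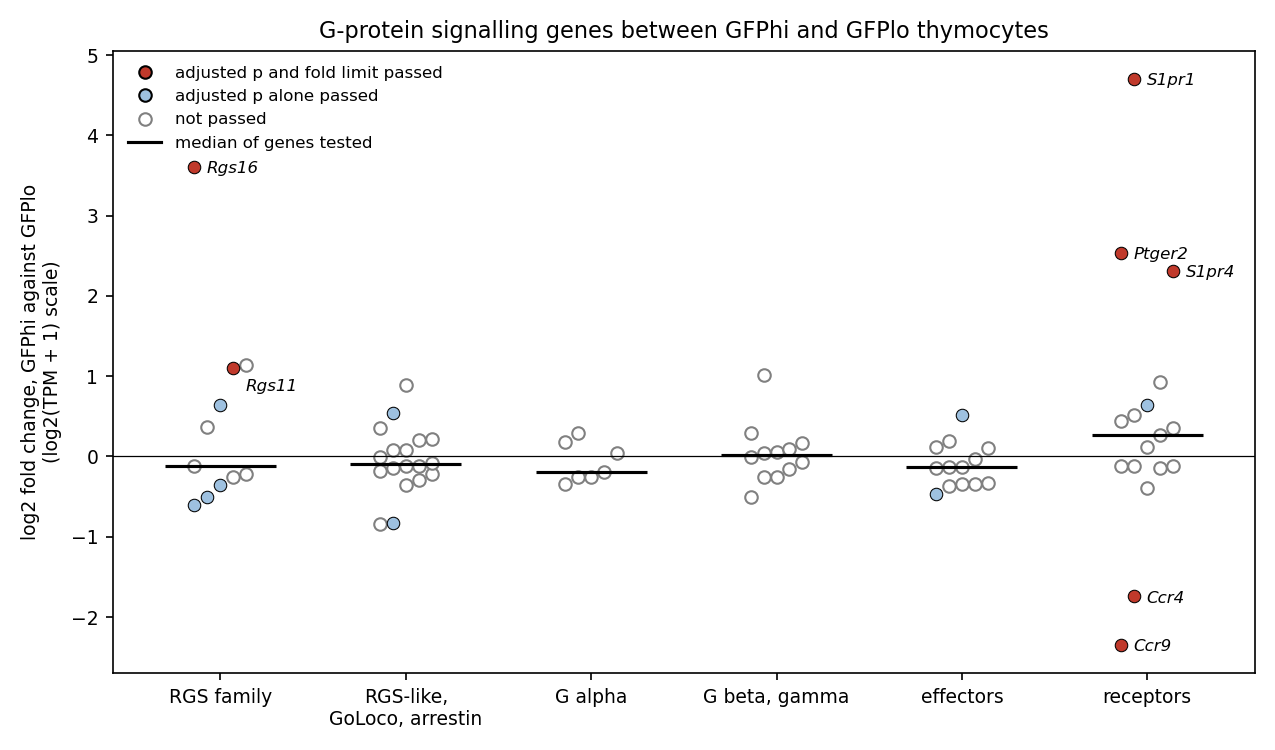
Log2 fold change between GFPhi and GFPlo of the tested genes in 6 lists of G-protein signaling, 1 point per gene, with the median of each list as a line. Red points passed both thresholds and are named, and blue points passed the adjusted p alone. Called genes are in the RGS family (Rgs16 and Rgs11) and among the receptors (3 higher and 2 lower). Over all genes tested, 1.26% were called higher and 0.404% lower.

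The genes whose pattern over the 9 samples was most like that of Rgs16 were Myb, a transcription factor of immature lymphoid cells (Pearson r = 0.987 on log2(TPM + 1)), Gm49396 (0.987), Lactb (0.983), B4galnt1 (0.982) and Klhdc3 (0.982), out of 19012 genes that reached 5 TPM in 3 or more samples. The samples fall into 3 sorted groups, so any gene that was high in GFPhi alone correlates with Rgs16. Myb averaged 8.20 ± 0.528, 9.65 ± 0.881 and 35.4 ± 4.37 TPM in GFPlo, GFPmed and GFPhi. Lactb averaged 4.38 ± 0.244, 4.91 ± 0.388 and 19.7 ± 1.21. Both had a GFPmed mean close to that of GFPlo, as Rgs16 did.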

How the data were processed

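RNA was extracted from 9 sorted samples, cDNA was made with the SMART-seq v4 kit and libraries with NexteraXT, which does not mark strand. Per the labels, STAR 2.7.11b, DESeq2 1.34.0 and GRCm38 were used by the submitters. The authors deposited 1 table of 41978 genes with the TPM of each sample and, per group, the mean normalized signal (read counts divided by size factors). Its columns of the authors' fold changes, p-values and calls were not used, and 0 sample columns were left unused. The gene length implied by the deposited TPM was within 1% of the mean transcript span for 98.4% of 41439 genes.

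The main test was limma 3.58.1 (R 4.3.3) on log2(TPM + 1), with 1 model over the 9 samples, eBayes with a trend and Benjamini-Hochberg adjustment over 30693 genes that reached 1 TPM in 3 or more samples. A gene was called at a log2 fold change of 1 or more in size with an adjusted p of 0.05 or less. Fold changes on this scale understate the change of low genes. TPM and group means together determined whole reads for 41578 genes (100% of values within 0.01 of a whole number), and 400 were not solved. Reads were PCR-amplified without molecular identifiers, so floors of 3 reads cover counting error only. Exonic TPM used GENCODE vM21 exons on GRCm38, joined over all transcripts of a gene. The fit was also run on simulated reads, with the same spread setting for every gene and for GFPhi against GFPlo only. That run says nothing on the step difference and is not used as support.

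All 9 members are named, and the 5 genes most correlated with the called member of largest change. Members and lists were chosen with earlier results of these data known. Of each list, at most 4 called genes are named, with Gnai2, Gnaq, Gna13, Arhgef1, Ccr7, Cxcr4 and S1pr1. Genes that passed the adjusted p alone, Rgs8, Rgs12, Rgs22 and overlapping genes were named after their values were seen. Marker and receptor genes served as checks. The labels call the replicates biological, and do not say whether same-numbered samples came from 1 mouse. Deviations of same-numbered samples from their group means correlated at 0.012 to 0.225, with a mean of 0.061. Differently numbered samples had a mean of -0.030. These values do not settle whether the numbers are pairs. The main fit did not pair them, and a fit with the number as a block was run as an alternative. Alternatives were a pseudocount of 0.1, no filter, median-of-ratios scaling, a minimum of 5 TPM, only the groups compared, no trend, a replicate block, each sample left out, no fold limit, limma-voom on reads and exonic TPM.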

Additional observations from a re-analysis of the deposited data

How the results depend on the processing

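Rgs16 was called between GFPhi and GFPlo and between GFPhi and GFPmed in all 18 alternatives that kept the fold limit, with adjusted p from 5.38e-07 to 0.0076 and from 4.61e-07 to 0.0123 in limma. Between GFPhi and GFPlo the count of members called was 2. It was 6 with no limit on the fold change, since fewer criteria apply, and 1 with no filter, with median-of-ratios scaling, with only the groups compared and with eBayes without trend. It ran from 1 to 2 when each sample was left out, and the lost member was Rgs11 each time. For Rgs11 the adjusted p was 0.0519 with no filter, 0.0959 with median-of-ratios scaling, 0.127 with only the groups compared and 0.064 without trend, and the cause was not tested. The count of members whose upper and lower steps differed was 0, and it was 1 (Rgs16) with limma-voom on solved reads and 0 to 1 when each sample was left out. The step difference could not be fitted with only the groups compared. Of 600 values for single members, 583 kept their side of the thresholds, 11 lost the call and 6 gained it. Of these values 11 changed sign, 2 between GFPmed and GFPlo and 9 for the step difference, none of them called.

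Over all genes, the count called was 511 between GFPhi and GFPlo (359 without GFPlo replicate 2 to 1194 with no fold limit), 212 between GFPhi and GFPmed (120 without GFPmed replicate 2 to 463 with no fold limit), 18 between GFPmed and GFPlo (2 without GFPmed replicate 3 to 29 with a pseudocount of 0.1) and 6 for the step difference (0 to 48, the most with limma-voom). With the replicate number as a block, the members called stayed at 2, 1, 0 and 0, and the genes called were 470, 160, 5 and 0. With the block the adjusted p of Rgs2 was 0.0669 and that of Rgs3 0.0625, and that of Rgs11 0.0188. Depth limits Rgs1 and Rgs18, with at most 87 and 15 reads in a sample.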
